A study of Mus musculus with 14 samples.

Results

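The genes described here are 38 genes of DNA replication and mitosis, chosen by name for their known roles and read on every array of the series through every probe that carries their name. They were 38 of 34821 gene names on the array and were read by 52 of 55681 probes, with 28 genes read by 1 probe and 10 by several. The study asked how loss of Bmi1 changes gene expression in peritoneal B-1a cells, an innate-like B cell population of the mouse body cavities. It profiled 7 samples labelled Bmi1 KO and 7 samples labelled WT on one-colour microarrays, in 2 experiment sets: set 1 held 3 KO and 3 WT arrays and set 2 held 4 KO and 4 WT arrays. The sources used here do not give the allele, the part of Bmi1 that is removed, any cell type restriction of the deletion, the strain, sex and age of the mice or the way the cells were purified. Nothing in the labels says that samples came from separate mice, so each p-value reflects only sample-to-sample spread, part of which may be technical. In a bulk sample, fewer cells in cycle and less RNA per cell cannot be told apart.

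Before a cell divides it licenses its replication origins by loading the MCM helicase onto DNA, fires them with Cdc45 and the GINS complex, and copies the DNA with polymerases held by the PCNA clamp. In mitosis, Cdk1 with the B cyclins, Plk1 and the Aurora kinases drive spindle assembly, and the anaphase-promoting complex with Cdc20 starts chromosome separation. Most of these genes are switched on by E2F factors late in G1 or, for the mitotic ones, by the MuvB complexes with B-Myb and Foxm1 in G2. B-1a cells are known for persisting in the adult by self-renewal, and Bmi1, a Polycomb protein, is known for repressing the cell cycle inhibitors of the Cdkn2a locus.

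The promoter windows of 4 genes are printed because they belong to genes with differences at unadjusted p under 0.05 in different roles: Ki-67, the centromeric histone Cenpa, the mitotic activator Cdc20 and the helicase subunit Mcm3. Each runs from 250 bases before to 50 bases after the transcription start in RefSeq's GRCm38.p6 annotation, 5′ to 3′ on the gene's strand. Capitals mark every match, on either strand, to the cell cycle homology region (CHR) TTTGAA, to the CCAAT box, and to the E2F letters TTTCCCGC, TTTCGCGC, TTTGCCGC and TTTGGCGC. E2F matches on opposite strands can share bases. The windows lie at chr7:135716330-135716629 on the minus strand for Mki67, chr5:30666636-30666935 on the plus strand for Cenpa, chr4:118437294-118437593 on the minus strand for Cdc20 and chr1:20820263-20820562 on the minus strand for Mcm3.
Mki67: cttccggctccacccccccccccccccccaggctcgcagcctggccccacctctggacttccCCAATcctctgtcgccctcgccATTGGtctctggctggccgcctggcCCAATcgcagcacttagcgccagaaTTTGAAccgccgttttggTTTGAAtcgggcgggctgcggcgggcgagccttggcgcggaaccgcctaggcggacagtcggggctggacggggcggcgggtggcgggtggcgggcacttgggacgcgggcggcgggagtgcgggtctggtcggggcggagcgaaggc
Cenpa: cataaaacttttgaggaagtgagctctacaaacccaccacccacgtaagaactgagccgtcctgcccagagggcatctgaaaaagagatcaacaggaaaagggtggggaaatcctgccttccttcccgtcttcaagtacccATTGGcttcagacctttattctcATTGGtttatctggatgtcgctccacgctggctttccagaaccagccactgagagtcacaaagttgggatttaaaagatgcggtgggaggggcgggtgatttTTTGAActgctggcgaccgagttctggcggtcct
Cdc20: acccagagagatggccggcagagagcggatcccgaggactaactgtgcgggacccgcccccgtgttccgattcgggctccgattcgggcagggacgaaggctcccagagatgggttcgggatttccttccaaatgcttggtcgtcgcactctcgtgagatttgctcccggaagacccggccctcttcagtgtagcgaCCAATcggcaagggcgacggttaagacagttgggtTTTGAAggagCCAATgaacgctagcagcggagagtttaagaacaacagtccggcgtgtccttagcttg
Mcm3: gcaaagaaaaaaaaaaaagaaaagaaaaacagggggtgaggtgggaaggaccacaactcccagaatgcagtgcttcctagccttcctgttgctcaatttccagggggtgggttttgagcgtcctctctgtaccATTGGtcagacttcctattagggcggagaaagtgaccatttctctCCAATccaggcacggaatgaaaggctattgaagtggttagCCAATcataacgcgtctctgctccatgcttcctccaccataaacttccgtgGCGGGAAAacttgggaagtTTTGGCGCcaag

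The 3 mitotic promoters (Mki67, Cenpa and Cdc20) each held a CHR match and CCAAT boxes and no E2F match, whereas the Mcm3 window held CCAAT boxes and E2F matches and no CHR match. The CHR matches began 116 and 98 bases before the start in Mki67 and 18 bases before it in Cdc20, and at base 17 after the start in Cenpa. In Mcm3 the E2F matches began at bases 20 and 39 after the start. Pcna, the remaining gene with unadjusted p under 0.05 (limma), is not printed. Its window held a CCAAT box beginning 87 bases before the start and no CHR or E2F match. RefSeq windows were found for 30 of the 38 genes (Tpx2, Ccna2, Aurkb, Foxm1, Kif20a, Gins1, Mcm4 and Gins2 were not matched). Of 15 mitotic genes with a window, counting Mki67 and Top2a among them, 11 held a CHR match, 14 a CCAAT box and 1 an E2F match. Of 15 replication and nucleotide genes, 2 held a CHR match, 11 a CCAAT box and 7 an E2F match. Over all 27025 promoter windows the shares were 18.1% for CHR, 37.9% for CCAAT and 2.32% for the E2F letters. A match is a description of letters in these windows only.

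Values are log2 of an array's processed signal minus that array's 75th percentile, so 0 is the array's upper quartile, and a level of one probe is set only against the same probe on other arrays. Between 20.6% and 56.7% of all probes read well above background (called detected below) on the KO arrays, against 43.5% to 63.3% on the WT arrays, and 4 KO arrays lay below 40%. The array labelled KO set 2 replicate 2 was the dimmest, at 20.6%, and its 75th percentile fell among probes not above background. The targeted gene did not read lower under the KO label. Its brighter probe had levels of 3.00, 2.98, 1.16, 0.61, -1.57, 3.78 and 2.58 on the KO arrays, against 2.09, 1.17, 1.81, -0.30, -3.12, 1.22 and 2.01 on the WT arrays. Its other probe had -0.16, -1.15, 0.95, -3.15, -1.66, 2.62 and 0.79 on the KO arrays, against -4.87, -3.57, -2.19, -2.22, -5.32, -5.04 and -4.73 on the WT arrays, a difference of 3.74 (limma, adjusted p over all kept probes 0.176). Since the removed part is not given, a probe outside it checks nothing, and "KO" below always means an array labelled Bmi1 KO. Among the B cell markers, Cd22, Cd79a, Cd79b, Ebf1, Ms4a1 and Pax5 were detected on all 14 arrays. Cd5, which defines B-1a cells, was detected on 3 KO arrays and 6 WT arrays, Spn on 5 and 7, and Ctla4 on 6 and 7. Bhlhe41, a transcription factor of B-1a cells, was detected on 4 KO arrays and all 7 WT arrays. It had levels of -2.95, 1.95, -3.26, -3.13, -1.65, 3.61 and 3.82 on KO arrays, against 4.19, 4.32, 3.69, 4.49, 4.54, 4.40 and 5.0 on WT arrays, with 6 KO arrays below every WT array and a difference of -4.61 ± 1.10 (SE; limma adjusted p 0.213). The part of this marker's shift in the differences below was not tested.

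None of the replication and mitosis genes passed the test between genotypes. Probes entered the test when at least 4 of the 7 arrays of a genotype detected them, which left 29 of the 38 genes among 20415 tested, each represented by its brightest probe. By limma, with experiment set as a covariate and Benjamini-Hochberg adjustment over all genes tested, 0 of 29 were higher in KO arrays at adjusted p under 0.05, against 0.00490% of all genes, and 0 of 29 were lower, against 0.0196%. Their adjusted p-values lay between 0.313 and 0.99. At unadjusted p under 0.05, 4 of the 29 genes (Mki67, Pcna, Cdc20 and Mcm3) read higher in KO arrays, against 10.0% of all genes, and 1 (Cenpa) read lower, against 4.23%. These shares lie near the background of all genes. No gene had all KO arrays above all WT arrays or all below, which happened for 0.152% and 0.0980% of all genes.

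Of the 29 genes, 18 had a higher mean in KO arrays and 11 a lower one. Their median difference was 0.78, against 0.47 for all genes tested, which leaves 0.31 relative to all genes. Both medians move with the scaling: with the 75th percentile taken only over probes detected on all 14 arrays, the genes' median was -0.56 and that of all genes -0.87, and with quantile normalization they were 0.24 and -0.05. The KO arrays also spread more, with a median standard deviation of 2.07 for these genes in KO arrays and 1.49 in WT arrays, and 24 of 29 genes spread more in KO arrays. Over all genes tested these medians were 1.83 in KO arrays and 1.03 in WT arrays.

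**Figure D1:**
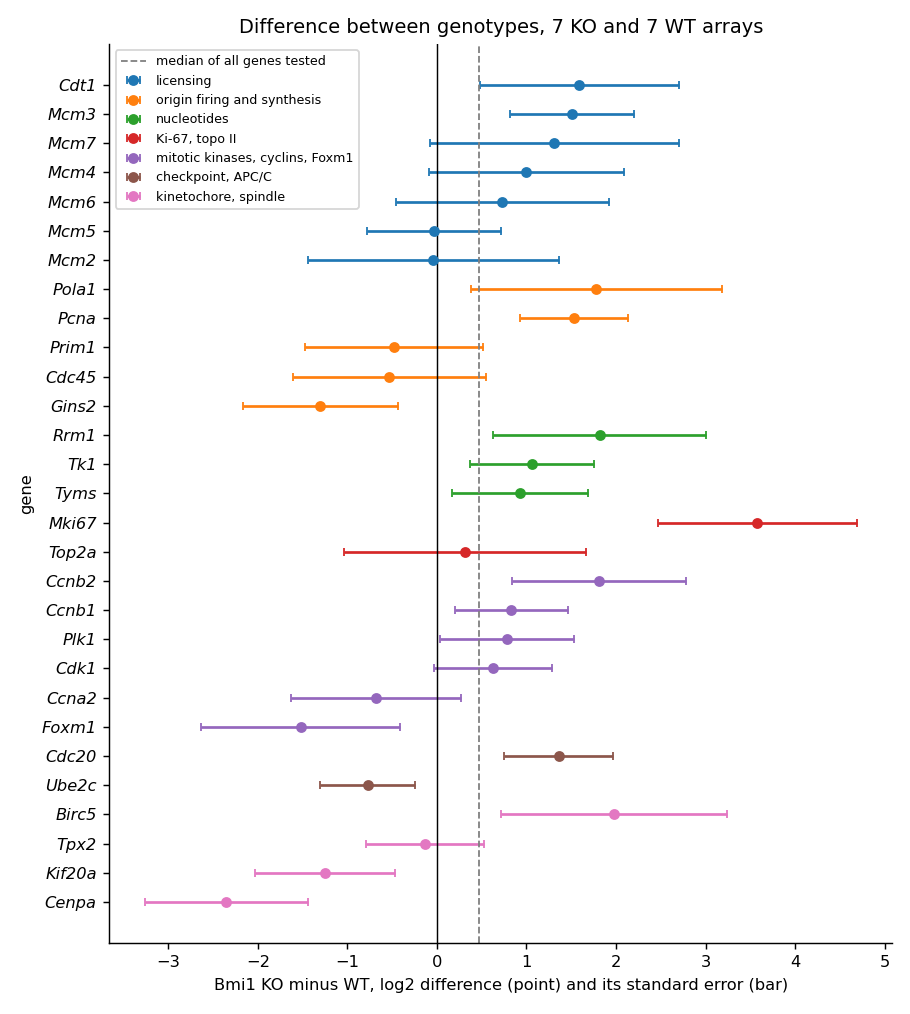
Log2 difference, Bmi1 KO minus WT, for the 29 replication and mitosis genes in the test (x axis; y axis, genes grouped by role and coloured), each point the estimate over 7 KO and 7 WT arrays and each bar its standard error. The dashed line is the median of all genes tested, 0.47; Mki67 lies farthest to the right at 3.58 and Cenpa farthest to the left at -2.35.

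Fewer of these probes were detected on the dim KO arrays. Of the 52 probes, 75%, 76.9% and 46.2% were well above background on the set 1 KO arrays and 23.1%, 34.6%, 26.9% and 61.5% on the set 2 KO arrays, against 71.2%, 76.9% and 69.2% on the set 1 WT arrays and 67.3%, 59.6%, 51.9% and 46.2% on the set 2 WT arrays. The mean was 49.2% ± 22.3 in KO arrays and 63.2% ± 11.1 in WT arrays (SD, n = 7 each), beside 40.6% ± 14.4 and 52.3% ± 7.24 for all probes. By gene, 11 to 32 of the 38 were detected on a KO array (median 19), against 22 to 33 on a WT array (median 25). Mki67, Pcna, Birc5, Tk1 and Mcm4 were detected on all 14 arrays, and 10 of the 29 tested genes were detected on 7 of 7 WT arrays. Without the 4 KO arrays below 40% of probes detected, the median difference of the tested genes was 0.51 and that of all genes -0.07. Mki67 then differed by 2.18, Pcna by 0.64, Cdc20 by 0.51, Mcm3 by 1.18 and Cenpa by -2.69. The part of the detection gap between genotypes in the differences below was not tested.

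**Figure D2:**
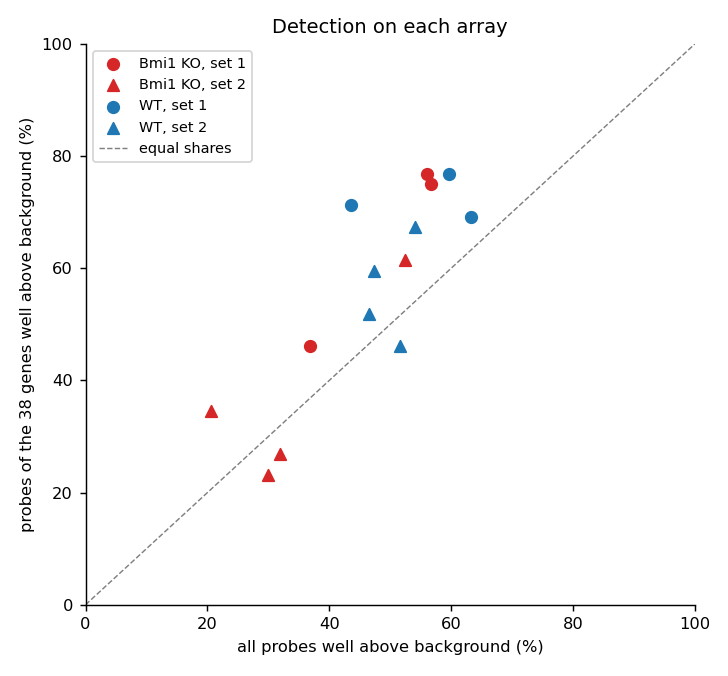
Share of the 52 replication and mitosis probes well above background (y axis, %) against the share of all probes (x axis, %) for each array; red, Bmi1 KO; blue, WT; circles, set 1; triangles, set 2; the dashed line marks equal shares. The 3 KO arrays of set 2 at the lower left hold 23.1% to 34.6% of these probes above background, below the lowest WT array at 46.2%.

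**Figure D3:**
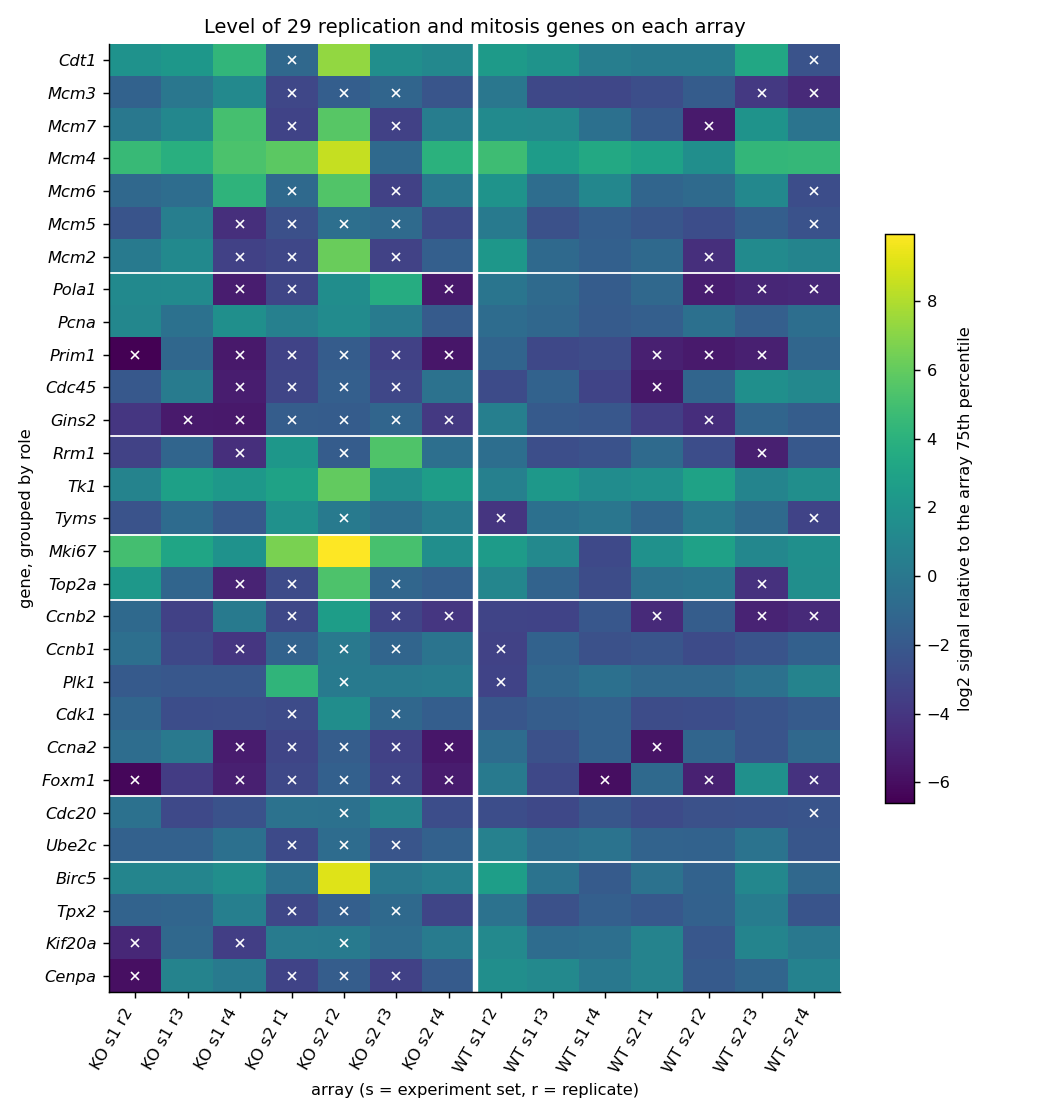
Level (colour, log2 signal over the array's 75th percentile) of 29 replication and mitosis genes (y axis, grouped by role) on each array (x axis, 7 KO arrays left and 7 WT arrays right; s, experiment set; r, replicate). A white cross marks a probe not well above background; KO set 2 replicate 2 holds the brightest cells, up to 9.96 for Mki67, and many crosses.

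The largest difference among the 29 genes was that of Mki67, which encodes Ki-67, a chromosome surface protein present in cycling and absent in resting cells. Its brighter probe (mm9 chr7:142884764-142884823) had levels of 5.03, 3.13 and 1.83 on the set 1 KO arrays and 6.63, 9.96, 5.16 and 1.57 on the set 2 KO arrays. On the WT arrays it had 2.51, 1.21 and -2.96 in set 1 and 1.80, 2.91, 1.10 and 1.68 in set 2. Thus 5 of 7 KO arrays lay above every WT array, and the other 2 lay within the WT range. The difference was 3.58 ± 1.11 (SE, limma), with an unadjusted p of 0.00537 and an adjusted p of 0.313. By rank within each array, which the scaling does not enter, the probe lay between percentiles 81.9 and 98.2 of all probes on KO arrays (median 93.9) and between percentiles 44.4 and 91.9 on WT arrays (median 84.6). The other Mki67 probe (chr7:142881591-142881650) had -4.85, 1.12 and 8.38 as lowest, median and highest level on KO arrays, and -4.74, -0.39 and 1.91 on WT arrays. Its difference was 2.18 (limma, adjusted p over all kept probes 0.493), in the same direction, with 2 KO arrays above all WT arrays by percentile. Leaving out each array in turn moved the difference of the brighter probe between 2.81 and 4.31, and the other settings between 2.18 and 3.69. The 2.18 was the value without the 4 KO arrays below 40% of probes detected.

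Top2a, the topoisomerase that untangles replicated chromosomes, did not follow Mki67. Its probe (chr11:98855522-98855581) had -4.96, -1.20 and 5.36 as lowest, median and highest level on KO arrays, and -4.23, -0.38 and 1.61 on WT arrays, so the groups overlapped. Its difference of 0.31 ± 1.35 (SE; limma adjusted p 0.919) was -0.69 without KO set 2 replicate 2 and -1.03 with scaling to commonly detected probes.

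**Figure D4:**
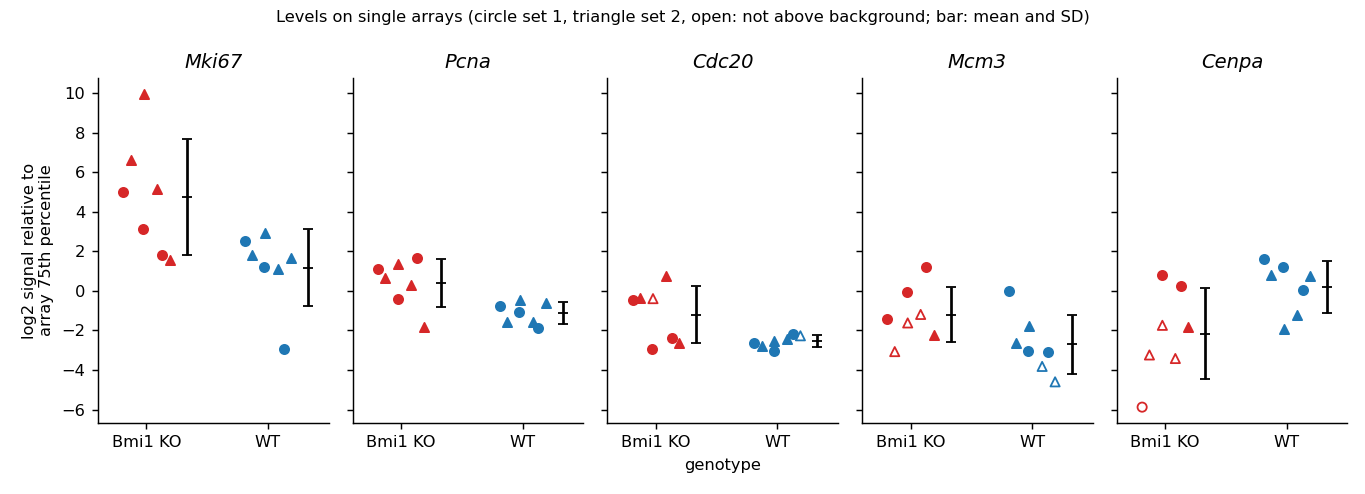
Levels (y axis, log2 signal over the array's 75th percentile) of the 5 genes with unadjusted p under 0.05 on single arrays, Bmi1 KO in red and WT in blue (x axis); circles, set 1; triangles, set 2; open symbols, not well above background; bars, mean and SD over 7 arrays. Mki67 and Pcna sit higher on most KO arrays, while the 4 KO points of Cenpa that are open lie below or within the WT range.

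The licensing genes load the MCM helicase: Cdc6 and Cdt1 are the loaders and Mcm2 to Mcm7 the helicase subunits. Of 7 tested, 0 passed the test, 1 (Mcm3) had an unadjusted p under 0.05, and their median difference was 1.0. Mcm3, at chr1:20793136-20793195, had -3.07, -1.41 and 1.21 as lowest, median and highest level on KO arrays, against -4.60, -3.03 and 0.00 on WT arrays. Its groups overlapped, with 1 KO array above all WT arrays. The difference was 1.51 ± 0.69 (SE; limma adjusted p 0.348), and its other probe gave 1.79. Cdt1 had -1.01, 1.83 and 7.25 on KO arrays, against -2.34, 0.47 and 3.31 on WT arrays. Its difference was 1.59 ± 1.11 (SE; limma adjusted p 0.448).

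The other MCM subunits showed no common direction across settings. Mcm4, detected on all 14 arrays, had -0.92, 4.55 and 8.53 on KO arrays, against 1.61, 3.42 and 4.80 on WT arrays, a difference of 1.0 whose sign turned with 2 of the scalings and the deposited table. Mcm7 and Mcm6 differed by 1.31 and 0.73, and both were negative with scaling to commonly detected probes. Mcm5 and Mcm2 differed by -0.03 and -0.04. Cdc6 was not well above background with its first probe on any array and with its second probe on any KO array, against 2 of 7 WT arrays.

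The firing and synthesis genes comprise the polymerase clamp Pcna, the helicase activators Cdc45, Gins1 and Gins2, and the priming subunits Pola1 and Prim1. Of 5 tested, 0 passed the test and their median difference was -0.48. Pcna (chr2:132075022-132075054) had levels of 1.09, -0.39 and 1.65 on the set 1 KO arrays and 0.63, 1.37, 0.28 and -1.83 on the set 2 KO arrays. It had -0.74, -1.09 and -1.86 on the set 1 WT arrays and -1.57, -0.47, -1.58 and -0.60 on the set 2 WT arrays. Here 6 of 7 KO arrays lay above every WT array, and KO set 2 replicate 4 lay at the low end. The difference was 1.53 ± 0.60 (SE; limma adjusted p 0.345), and 0.19 with scaling to commonly detected probes.

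Gins2 had -5.45, -3.87 and -1.22 on KO arrays, against -4.43, -1.90 and 0.53 on WT arrays. It was detected on 1 of 7 KO arrays and 6 of 7 WT arrays, and its difference was -1.30 ± 0.87 (SE; limma adjusted p 0.431). It entered the test only through the WT arrays, so that difference is set against KO readings mostly not above background. Pola1, a catalytic subunit of the priming polymerase, differed by 1.78 ± 1.40, Cdc45 by -0.53 ± 1.08 and the primase subunit Prim1 by -0.48 ± 0.99 (SE). Pola1 was detected on 4 of 7 KO arrays and 4 of 7 WT arrays, Cdc45 on 3 and 6, and Prim1 on 1 and 4. Cdc45 and Prim1 thus entered the test only through the WT arrays.

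The nucleotide supply genes make deoxynucleotides: Rrm1 and Rrm2 form ribonucleotide reductase, Tyms makes thymidylate and Tk1 salvages thymidine. Of 3 tested, 0 passed the test, and their median difference was 1.06. Rrm1 had -4.38, -1.16 and 5.39 on KO arrays, against -5.15, -2.43 and -0.61 on WT arrays, with a difference of 1.82 ± 1.19 (SE; limma adjusted p 0.422). Its highest values, 5.39 and 2.15, came from KO set 2 replicates 3 and 1, and its groups overlapped. Tk1's brightest probe had 0.78, 2.64 and 6.0 on KO arrays, against 0.61, 1.62 and 2.93 on WT arrays, a difference of 1.06 ± 0.69 (SE; limma adjusted p 0.423). The 3 Tk1 probes disagreed, the other 2 giving -1.14 and -0.23, so no direction is given for this gene. The probe at -1.14 was detected on 3 of 7 KO arrays and 7 of 7 WT arrays, so it was kept only through the WT arrays. Tyms differed by 0.93 ± 0.76 (SE), and by -0.41 with scaling to commonly detected probes.

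The mitotic kinases, cyclins and Foxm1, a transcription factor of mitotic genes, were 6 tested genes with 0 called and a median difference of 0.71. Cdk1, the mitotic kinase, had -2.79, -1.63 and 1.54 on KO arrays, against -2.72, -2.17 and -1.44 on WT arrays. Its difference was 0.63 ± 0.66 (SE; limma adjusted p 0.627), and -0.71 with scaling to commonly detected probes, and its other 2 probes were above background on no array. Ccnb2, a B cyclin, had -3.98, -3.03 and 2.65 on KO arrays, against -4.91, -3.25 and -1.69 on WT arrays, a difference of 1.81 ± 0.97 (SE; limma adjusted p 0.361). The medians of Ccnb2 lay close together, and the difference rests on the upper KO arrays, 3 of which exceeded every WT array.

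Foxm1 was read by 2 probes that differed in sign. The brighter one (chr6:128323866-128323925) had -6.28, -3.63 and -1.49 on KO arrays, against -5.99, -3.03 and 1.69 on WT arrays. Its difference was -1.52 ± 1.11 (SE, limma adjusted p 0.469). It was detected on 1 of 7 KO arrays and 4 of 7 WT arrays. It entered the test only through the WT arrays, so the size and sign of that difference carry that limit. The dimmer one (chr6:128324783-128324842) was detected on 3 of 7 KO arrays and 0 of 7 WT arrays (exact permutation within sets, two-sided, p = 0.111). Its KO mean was 2.14-fold above the detection floor of the WT arrays, the mean of each array's dimmest detected probe or of the Foxm1 probe where that was brighter, and 1.69-fold without KO set 2 replicate 2. Ccnb1, the partner of Cdk1, differed by 0.83 ± 0.63, with 5 KO arrays above every WT array although only 3 KO arrays and 6 WT arrays detected the probe. Its other 2 probes, both dim, differed by 0.50 and 1.42. Plk1, a kinase of spindle assembly, differed by 0.78 ± 0.75, and Ccna2, the S and G2 cyclin, by -0.68 ± 0.95 (SE). Ccna2 was detected on 2 of 7 KO arrays and 6 of 7 WT arrays, so it entered the test only through the WT arrays. The Aurora kinases Aurka and Aurkb were not tested, with Aurkb above background on no array.

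The checkpoint and anaphase genes are Cdc20 and Ube2c, which activate and charge the anaphase-promoting complex with ubiquitin, and the checkpoint kinases Bub1 and Bub1b. Of 2 tested, 0 passed the test. Cdc20 (chr4:118105534-118105593) had -2.92, -0.44 and 0.78 on KO arrays, against -3.03, -2.51 and -2.19 on WT arrays. Its WT arrays lay close together (SD 0.29, against 1.43 in KO arrays), and 4 KO arrays lay above all of them, among them KO set 2 replicate 2 at -0.39, where the probe was not detected. The difference was 1.36 ± 0.61 (SE; limma adjusted p 0.348), and 0.02 with scaling to commonly detected probes. Ube2c had -2.85, -1.47 and -0.46 on KO arrays, against -2.14, -0.59 and 0.66 on WT arrays, a difference of -0.77 ± 0.53 (SE; limma adjusted p 0.444). Its other probe gave -0.87.

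The kinetochore and spindle genes held the only gene with an unadjusted p under 0.05 in the lower direction. Cenpa, the histone H3 variant that marks centromeres (probe chr5:30974916-30975386), had -5.88, -1.85 and 0.80 on KO arrays, against -1.92, 0.77 and 1.61 on WT arrays. It was detected on 3 of 7 KO arrays and 7 of 7 WT arrays, and 3 KO arrays lay below every WT array, all 3 of them not above background. The difference was -2.35 ± 0.91 (SE; limma adjusted p 0.344). It entered the test through the WT arrays, where it is high, and its KO mean rests mostly on readings not above background, so the size and sign of the difference carry that limit. Kif20a, a kinesin of cytokinesis, had -4.77, -0.68 and 0.31 on KO arrays, against -2.07, 0.03 and 1.20 on WT arrays, a difference of -1.25 ± 0.78 (SE; limma adjusted p 0.408). It was detected on 4 of 7 KO arrays and 7 of 7 WT arrays.

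Birc5, which encodes survivin of the chromosomal passenger complex, pointed the other way. Its brightest probe had -0.41, 0.96 and 9.17 on KO arrays, against -1.81, -0.33 and 2.70 on WT arrays, a difference of 1.98 ± 1.26 (SE; limma adjusted p 0.414). Only KO set 2 replicate 2 lay above all WT arrays, and without it the difference was 0.70. The other 2 Birc5 probes gave 1.2 and 2.34. Tpx2, a spindle assembly factor, differed by -0.13 ± 0.66 (SE). Of these 4 tested genes 0 passed the test, and their median difference was -0.69.

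The 17 probes not kept were tested singly by an exact permutation of genotype within sets (1400 arrangements, two-sided, no adjustment), and 2 had p under 0.05, both higher in KO arrays. Of all 25891 probes not kept, 10.3% had p under 0.05 and a higher KO level, and 0% a lower one, so the count of 2 lies near the background. Bub1, a kinase of the spindle checkpoint, was detected on 3 of 7 KO arrays and 0 of 7 WT arrays. Its lowest, median and highest levels were -6.29, -3.12 and 0.75 on KO arrays, against -6.25, -5.63 and -4.09 on WT arrays (exact permutation p = 0.03). Set against the detection floor of the WT arrays, its KO mean was 1.75-fold higher, and 1.16-fold without KO set 2 replicate 2. These ratios count undetected KO readings at face value and are no lower bounds. Rrm2 was detected on KO set 2 replicate 2 and on no other array, at 4.53 (exact permutation p = 0.0386). Without that array its KO mean of -4.73 lay below the mean WT detection floor of -3.62, so no fold is given. Probes that no array detected also read higher in KO arrays, as with Aurkb, at -4.25 ± 1.86 in KO arrays and -5.28 ± 0.58 in WT arrays (SD, n = 7 each; exact permutation p = 0.0957). Scaled levels near background differed between arrays: the lowest signal well above background lay at -4.40 to 0.51 on KO arrays and at -4.13 to -2.90 on WT arrays. Bub1b, Cenpe, Kif11, Gins1, Cdc6 and Aurka differed by 1.36, 1.2, 1.17, 0.43, 0.90 (first probe) and 0.59, with exact permutation p-values of 0.15, 0.19, 0.251, 0.607, 0.136 and 0.434.

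KO set 2 replicate 2 carried the highest KO level for 13 of the 29 genes and lay above every WT array for 16 of them. Among these were Mki67 at 9.96, Birc5 at 9.17, Mcm4 at 8.53, Cdt1 at 7.25, Mcm2 at 6.18, Tk1 at 6.0, Mcm7 at 5.64, Mcm6 at 5.48 and Top2a at 5.36. Both counts include readings not above background on this array. Ccnb1 at 0.11, Cdc20 at -0.39 and Tyms at 0.23 lay above every WT array without being detected there. The 75th percentile subtracted on this array was 3.63, against 7.09 to 7.99 on WT arrays. The shares of all genes with such readings were not counted, so neither count sets these genes apart from others on this array. Without it the median difference of the 29 genes was 0.25, against 0.33 for all genes tested, so the median relative to all genes was -0.08 in place of 0.31. The same array held the highest summed level of 4 other marker lists. Its 11 macrophage markers summed to 10.58 on the log2 scale, against 3.29 as the lowest KO array and 3.71 to 7.51 on WT arrays. Of these markers, 8 were above background there, and Csf1r and Emr1 were so on all 14 arrays. Its 6 plasma cell markers summed to 8.77 (KO arrays from 2.49, WT arrays 2.65 to 4.23). That sum is nearly all Irf4, which B cells also express, at 8.70; of the others only Prdm1 was detected there. Its 6 erythroid genes summed to 12.16 (KO arrays from -1.36, WT arrays -2.78 to 10.46) and its 12 B cell markers to 12.73 (KO arrays from 8.55, WT arrays 8.37 to 9.92). Only 8 of these 12 were detected on this array, and Bhlhe41 at -1.65, Spn at -1.64 and Ctla4 at -1.50 read low on it. T cell, NK cell, mast cell and germinal centre markers summed to 4.33, 2.92, 1.39 and 1.19 on this array, within the range of the other KO arrays. None of 5 mesothelial or 6 neutrophil and eosinophil markers was detected there. For the 4 lists highest on this array, the other KO arrays are given only by their lowest sum. This array was not the only KO array above the WT range. On KO set 1 replicate 4, Irf4 alone, at 7.31, exceeded every WT plasma cell sum. The part of the marker lists in the levels of the replication and mitosis genes was not tested. Among WT arrays, set 1 replicate 2 was highest for 13 of the 29 genes, again without a count over all genes.

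Within set 1, 0 of 29 genes were called by limma, against 0.00980% of all genes, and 3 had an unadjusted p under 0.05, against 6.11%: Pcna at 2.01, Gins2 at -3.78 and Kif20a at -3.08. On KO set 1 replicate 4 neither Gins2 (-5.45) nor Kif20a (-3.52) was detected. Gins2 was also not detected on KO set 1 replicate 3 (-5.37), nor Kif20a on KO set 1 replicate 2 (-4.77). Their set 1 differences, and their differences between the sets below, thus rest mostly on undetected KO readings. Within set 2, 0 of 29 were called, against 0.00490%, and 3 had an unadjusted p under 0.05, against 15.7%: Rrm1 at 3.99, Mki67 at 3.96 and Cdc20 at 1.84. The median difference was -0.11 in set 1 (all genes 0.10) and 1.18 in set 2 (all genes 0.83), and 13 of 29 genes had opposite signs in the sets. The difference between the sets was tested as an interaction: 0 of 29 genes passed, against 0% of all genes, with adjusted p-values of at least 0.872 (limma), and 3 had an unadjusted p under 0.05, against 4.84%: Gins2, Kif20a and Rrm1, with set 2 minus set 1 at 4.33, 3.20 and 5.07. Mki67 held its sign in both sets (3.08 and 3.96), as did Pcna (2.01 and 1.16), Cdc20 (0.71 and 1.84), Mcm3 (1.95 and 1.18) and Cenpa (-2.57 and -2.17). Leaving out KO set 2 replicate 4, the set 2 KO array with the most probes above background, 2 of 29 genes passed within set 2, against 13.0% of all genes: Mki67 at 5.38 ± 1.38 and Cdc20 at 2.50 ± 0.67 (SE; limma adjusted p 0.0336 and 0.0362). The count of 2 lies below that background.

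Set 1 lay on slide 1. Set 2 was split, with 4 KO and 2 WT arrays on slide 2 and 2 WT arrays on slide 3, and slides coincided with scans. Within slide 2 the differences were 4.38 for Mki67, 1.69 for Pcna, 1.94 for Cdc20, 1.21 for Mcm3 and -2.36 for Cenpa, with adjusted p-values of at least 0.523 (limma). With slide as a fixed block over all arrays they were 3.69, 1.86, 1.29, 1.60 and -2.47.

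**Figure D5:**
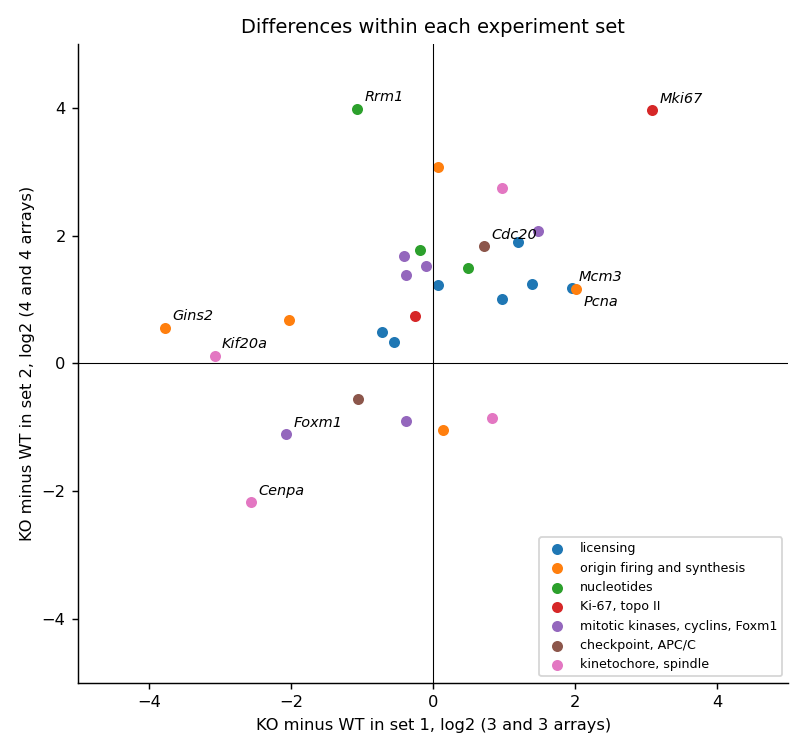
Log2 difference, Bmi1 KO minus WT, of 29 replication and mitosis genes within set 1 (x axis, 3 KO and 3 WT arrays) and within set 2 (y axis, 4 KO and 4 WT arrays), coloured by role. Mki67, at 3.08 and 3.96, lies at the upper right. Gins2, Kif20a and Rrm1 are the points farthest from agreement between the sets. The set 1 values of Gins2 and Kif20a rest mostly on KO readings not above background.

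Other genes of the same processes were read from lists of further replication and mitosis genes. Of 42 other replication genes, 38 were tested and 0 were called by limma, with 4 higher and 0 lower at unadjusted p under 0.05. Over all genes tested, 10.0% were higher and 4.23% lower by the same test, so these counts lie near the background. The median difference was 0.31, which is -0.16 relative to all genes. Among those that read higher in KO arrays were Fen1, the flap nuclease of lagging strands, at 2.64 ± 1.15, and Uhrf1, which recruits maintenance methylation, at 2.46 ± 1.09 (SE). In the other direction the lowest p-values belonged to the origin-firing kinase Cdc7 at -1.43 ± 0.68, its activator Dbf4 at -2.03 ± 1.07 and the clamp loader subunit Rfc3 at -1.83 ± 1.26 (SE). Adjusted p-values of these 5 genes lay between 0.348 and 0.442 (limma). Cdc7 was detected on 5 of 7 KO arrays and 7 of 7 WT arrays, Dbf4 on 4 and 7, and Rfc3 on 2 and 5. Rfc3 thus entered the test only through the WT arrays.

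Of 52 other mitosis genes, 31 were tested and 0 were called by limma, with 3 higher and 1 lower at unadjusted p under 0.05. These counts also lie near the shares over all genes, 10.0% higher and 4.23% lower. The median difference was -0.07, which is -0.54 relative to all genes. The condensin subunits Ncapd2 and Smc4 read higher in KO arrays at 2.33 ± 0.83 and 2.22 ± 0.82, and Cks1b, a small subunit of cyclin-dependent kinase complexes, at 2.60 ± 1.05 (SE). Smc4 had 5 of 7 KO arrays above every WT array and was detected on all 14 arrays. Pttg1, which encodes securin, the inhibitor of separase, read lower at -2.21 ± 0.93, the checkpoint kinase Ttk at -1.88 ± 1.26 and the centrosomal kinase Nek2 at -1.76 ± 1.31 (SE). Pttg1 was detected on 2 of 7 KO arrays and 7 of 7 WT arrays, Ttk on 3 and 6, and Ncapd2 on 3 and 4. Pttg1, Ttk and Ncapd2 thus entered the test only through the WT arrays. None of these 6 genes passed the adjusted threshold (limma, lowest adjusted p 0.328).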

How the data were processed

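Scanner output was used for 14 arrays, each holding spot intensity as Agilent Feature Extraction 10.7.3.1 gave it per the file headers. Probe positions are on genome build mm9; no mm9 annotation was used here, so exon or UTR placement of probes is not given. The same files hold per-spot marks for signal above background, saturation and outliers, each a score of 0 or 1 per the file headers. The authors also deposited normalized log2 values, with the same median, 3.952, for each array and a Spearman rho of at least 0.9993 with its scanner values. The sources used here do not name its tool or settings. Total RNA was extracted with a micro column kit and Cy3 labelled after an undisclosed protocol, per the labels.

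Outlier spots were left out and spots of a probe averaged. Processed intensity was put on the log2 scale and the 75th percentile of its array subtracted. Filtering kept probes that at least 4 of 7 arrays of a genotype detected above background, and the probe with the highest mean stood for its gene. Genotypes were compared with limma 3.58.1 (R 4.3.3 with version 1.17.8 of data.table; lmFit and eBayes, two-sided, Benjamini-Hochberg over 20415 genes, threshold 0.05), with set as a covariate, and were tested on simulated data. Figures used Python 3.11.15, pandas 2.3.3 and matplotlib 3.10.9. Sets were read from the 2 numbering styles of the sample titles. The number of arrays limits the precision.

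Replicate numbers in the titles did not pair the samples. The genes, lists and tests were chosen with earlier results of these data known. Values by array are given for Mki67 and Pcna, and the lowest, median and highest level for Top2a, Cdk1, Foxm1 and the 2 genes of each role with the smallest unadjusted p. From the lists of other genes, up to 3 genes in each direction are named, those with the smallest p. Items withheld from the text are not reported here. Scalings, filters, covariates and omitted arrays were tried as alternatives.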

Additional observations from a re-analysis of the deposited data

Results flagged for a closer look

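In 58 groups of 7 arrays, 1 gene in 1 genotype each, 7 held an array far from the others, by a gap to the nearest array over the whole range above Dixon's 95% critical value for 7 samples. Chance flags about 1 in 20 groups. Among KO arrays, set 2 replicate 2 was the highest by such a gap for Birc5 at 9.17 (nearest 1.57), for Tk1 at 6.0 (nearest 2.94) and for Cdk1 at 1.54 (nearest -1.05, with Cdk1 above background on that array). Set 2 replicate 1 was the highest KO array for Plk1 at 4.26 (nearest 0.38). Among WT arrays, set 1 replicate 4 was the lowest for Mki67 at -2.96 (nearest 1.10), set 2 replicate 1 the lowest for Ccna2 at -5.72 (nearest -2.51, with Ccna2 not above background on that array) and set 1 replicate 2 the highest for Mcm5 at 0.17 (nearest -1.65). Values are log2 signal over the 75th percentile of the array.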

How the results depend on the processing

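The count of genes called between genotypes stayed at 0 in each direction in 14 alternative settings and with each array left out. The median difference of the tested genes, 0.78, was -0.56 with scaling to commonly detected probes and lay between 0.25 and 0.90 with an array left out. The median relative to all genes lay between 0.14 and 0.57 over the settings and between -0.08 and 0.43 with an array left out. The number called within set 2 lay between 0 and 2 with an array left out. Folds without KO set 2 replicate 2 for probes dim in WT arrays were added after seeing the data. Signs turned for single genes, and the cause was not tested. With scaling to commonly detected probes the differences were -0.56 for Plk1, -0.27 for Tk1, -1.03 for Top2a, -0.71 for Cdk1, -0.41 for Tyms, -0.61 for Mcm6, -0.03 for Mcm7, -0.34 for Mcm4 and -0.51 for Ccnb1. Quantile normalization gave 0.36 for Mcm5 and -0.15 for Mcm4, and the deposited log2 values gave 0.36 for Mcm5 and -0.14 for Mcm4. Normexp gave 0.26 for Mcm2, 0.22 for Tpx2, 0.05 for Cdc45, 0.28 for Ccna2, 0.27 for Prim1 and 0.37 for Mcm5. The mean of a gene's kept probes gave -0.10 for Tk1. Slide as a fixed block gave 0.04 for Cdc45 and 0.06 for Ccna2, and as a random block 0.21 for Mcm2 and 0.09 for Mcm5. Array weights gave -0.0044 for Plk1, 0.54 for Mcm2, 0.25 for Tpx2, 0.50 for Cdc45, 0.34 for Ccna2 and 0.70 for Mcm5. Without the 4 KO arrays under 40% of probes above background, Mcm2 gave 0.18, Cdc45 1.22 and Mcm6 -0.59. With an array left out, Top2a ranged from -0.69 to 1.05, Mcm2 from -1.25 to 0.52, Tpx2 from -0.45 to 0.23, Prim1 from -0.95 to 0.08, Mcm6 from -0.24 to 1.34 and Mcm5 from -0.44 to 0.46. Mki67, Pcna, Cdc20 (lowest 0.02), Mcm3, Pola1, Ccnb2, Rrm1, Birc5 and Cdt1 stayed positive in every setting in which they were tested. Cenpa, Kif20a, Ube2c, Gins2 and the brighter Foxm1 probe stayed negative in every such setting over both sets. Cenpa, Gins2 and this Foxm1 probe entered the test only through the WT arrays, so their steady sign carries that limit and adds no support. Within set 2 alone, Gins2 differed by 0.56 and Kif20a by 0.12. Same-numbered samples deviated together with correlations of -0.23 to 0.18, and 1 of 7 samples correlated best with its own number. With the replicate block 0 genes were called and the median was 0.78. Without the filter on dim probes, and with detection required on 7 of 7 arrays, which left 10 genes, no sign turned. Signal near background limits the 9 genes not tested and the dim KO arrays.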
